A study of Mus musculus with 16 samples.

Results

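In the liver and kidney of aged mice, 43 genes of the complement and coagulation systems were followed, of the 32989 genes in the deposited tables. The genes were taken by symbol. They fall into 21 complement genes, which make the proteins of a blood-borne defence cascade, and 22 coagulation genes, which make the proteins that form, limit and dissolve blood clots. The mice were male C57BL/6J, 97 weeks old, and had spent 85 weeks under 1 of 2 light schedules. In the LD condition the light period was the same every day, and in the ADV condition the light schedule was advanced by 8 h every 4 days, a model of chronic jet lag. Liver and kidney of the same 4 LD mice, named L63, L65, L86 and L104, and the same 4 ADV mice, named A75, A91, A94 and A115, were measured, which makes 16 poly(A) RNA-seq libraries. No gene had been altered in any of these mice.

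Complement is triggered by antibody complexes (the classical pathway), by sugars on microbes (the lectin pathway) or by spontaneous turnover of C3 (the alternative pathway). The 3 routes meet at the cleavage of C3, which marks targets, releases the anaphylatoxins that call in leukocytes and starts the terminal pathway that inserts a pore into membranes. Coagulation runs from tissue factor or from contact with charged surfaces through a chain of proteases to thrombin, which turns fibrinogen into fibrin, while plasmin dissolves it. Hepatocytes are the main source of most of these proteins in blood, and several of them belong to the acute phase response, in which hepatocytes alter their output during inflammation.

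Levels are given as FPKM, the fragments on a gene scaled to its exon length and to the size of the library, which allows levels to be compared between genes. From 21092501 to 24285055 fragments per liver library and from 15688495 to 18043306 per kidney library lay on annotated genes, and 3 fragments on 1 kb of exon amounted to between 0.114 and 0.175 FPKM. The liver libraries held abundant hepatocyte transcripts, with a summed level of 10 marker genes of 67107 to 82010 FPKM against 78.4 to 123 FPKM in the kidney. Some libraries stood apart. The A94 liver held the highest level of all 8 livers for each of 10 macrophage markers and each of 6 B cell and plasma cell markers. In the A115 kidney, 30.9% of fragments came from mitochondrial genes against 8.63% to 16.5% in the other kidneys, and the summed level of 7 proximal tubule markers was 1787 FPKM against 2995 to 4068. The sums of distal tubule and collecting duct markers, at 1137 FPKM against 1790 to 2941, and of podocyte markers, at 49.2 against 66.1 to 81.9, were also lowest there. Those of bile duct and adipocyte markers were the highest of all kidneys. The study used 2 sequencing providers, and which provider sequenced which library is not given in the sources used here, so the provider and the light condition cannot be told apart.

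In the LD livers, 37 of the 43 genes had a mean above 10 FPKM and 27 a mean above 100 FPKM. In the LD kidneys these numbers were 7 and 1. The fibrinogen chains led the members in the liver, with 2359 ± 212 FPKM (mean ± SD of 4 mice) of the beta chain gene Fgb, 1640.4 ± 187 FPKM of the gamma chain gene Fgg and 1374 ± 242 FPKM of the alpha chain gene Fga. The transcript of C3, the protein at the centre of complement, was at 1369.8 ± 329 FPKM. At the other end of the liver range were the anaphylatoxin receptors C5ar1, at 0.462 ± 0.195 FPKM, and C3ar1, at 1.04 ± 0.0816 FPKM, and tissue factor (F3), at 1.34 ± 0.440 FPKM.

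Between the organs of the LD mice, limma on log2(FPKM + 0.1) over 14379 genes found 38 of the 43 members higher in the liver and 1 lower at an adjusted p under 0.05, where 11% of all genes tested were higher in the liver and 55.3% were lower. The median log2 difference, liver minus kidney, was 5.93 over the members and -0.79 over all genes. This fit kept genes by their mean over all 16 libraries, while 34 of the 43 members passed the filter on low values in the kidney alone. The members below it in the kidney entered through their liver levels, so that their higher level in the liver was set in advance. Scaling by the median ratio, which moved the median of all genes to -0.03, turned the split over all genes into 25.1% higher and 29.4% lower, and the members into 40 higher and 1 lower. Factor XI (F11) and the beta chain of complement C8 (C8b) were listed at 0 in all 8 kidneys. Against the level that 3 fragments would give in the shallowest LD kidney, the mean of C8b in the LD livers was at least 1979.8-fold higher and that of F11 at least 300.1-fold higher, and the median over members was 5.93 also with these bounds.

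On this scale the difference was 12.29 ± 0.14 (log2 ± SE) for plasminogen (Plg), the precursor of plasmin, which was the largest also under median ratio scaling. It was 10.70 ± 0.90 for Fgb and 10.65 ± 0.26 for heparin cofactor II (Serpind1), and the added 0.1 FPKM sets the order of genes near 0 in the kidney. Plg stood at 704 ± 34.0 FPKM in the LD livers and at 0.0414 ± 0.0184 FPKM in the LD kidneys. Thrombin's precursor F2 and antithrombin (Serpinc1), its main inhibitor, were at 0.604 ± 0.109 and 0.716 ± 0.161 FPKM in the LD kidneys, which was 0.0818% and 0.0895% of their liver means.

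The gene that went the other way was F3, which encodes the cell-bound trigger of coagulation and is not a plasma protein. Its level was 1.84, 1.57, 0.905 and 1.04 FPKM in the livers and 14.4, 14.7, 31.9 and 12.8 FPKM in the kidneys of L63, L65, L86 and L104, an order of mice that is kept for all values of LD mice. All 4 kidneys lay above all 4 livers, and the log2 difference was -3.64 ± 0.51 (adjusted p = 1.5e-05). The other 4 genes did not pass this threshold between the organs, with a log2 difference of -0.32 ± 0.45 for C5ar1, -0.29 ± 0.48 for Cfd (factor D, the protease of the alternative pathway), 0.44 ± 0.45 for C3ar1 and 0.47 ± 0.27 for factor VIII (F8). Under median ratio scaling the latter 2 were called higher in the liver, at 1.17 for C3ar1 and 1.26 for F8.

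**Figure D1:**
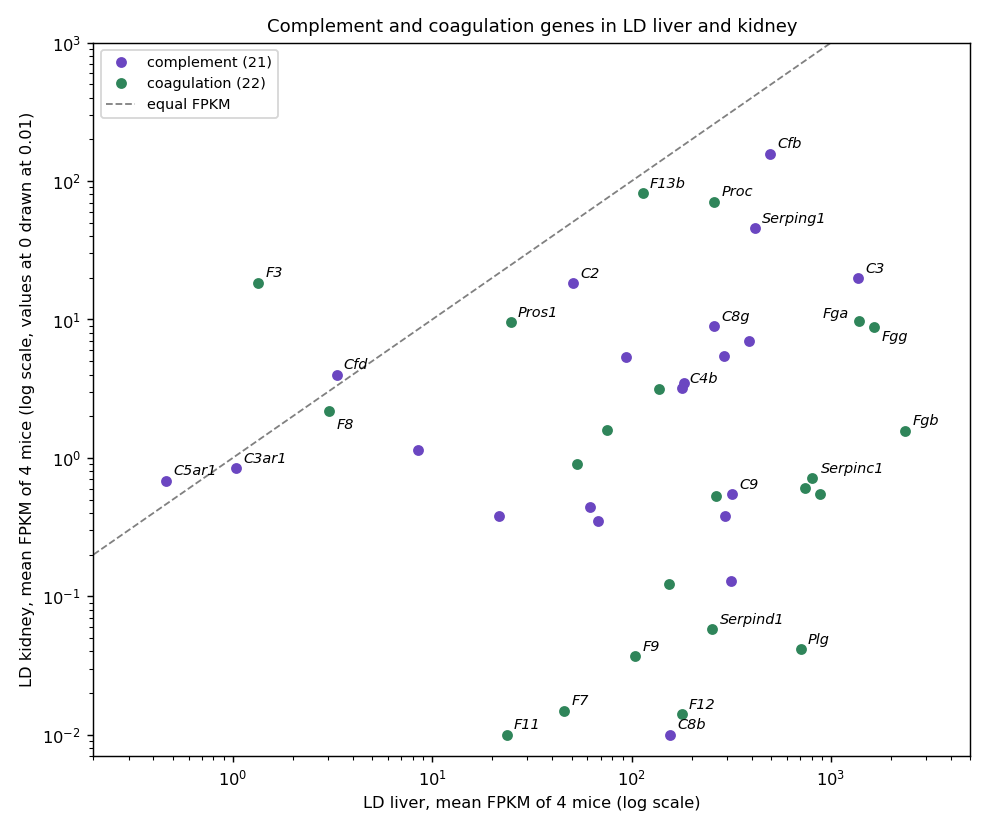
Mean FPKM of the 43 genes in the livers (horizontal) and kidneys (vertical) of the 4 LD mice, both on log scales, with complement and coagulation in separate colours and a dashed line at equal levels. Most genes lie far below the line, F3 lies above it with a kidney mean of 18.5 FPKM, and Cfb, F13b and Proc are the 3 highest in the kidney.

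In the LD kidneys 22 members had a mean above 1 FPKM, and for all of them but F3 and Cfd the liver mean was higher. Highest was Cfb (factor B, which forms the alternative pathway convertase with C3b), at 158 ± 12.96 FPKM, or 32.1% of its liver mean. F13b, the carrier subunit of the fibrin-crosslinking factor XIII, stood at 81.6 ± 13.7 FPKM, 71.9% of the liver mean, and protein C (Proc), an anticoagulant protease, at 70.9 ± 6.87 FPKM. Next came the C1 inhibitor Serping1, at 45.5 ± 12.9 FPKM, C3, at 19.8 ± 24.0, F3, at 18.5 ± 8.97, and C2, the protease of the classical convertase, at 18.3 ± 3.85. The spread of C3 and F3 between mice was wide enough that the order of C3, F3 and C2 lay within it.

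Between 1 and 10 FPKM lay 15 members. Of the complement genes these were C8g (8.92 ± 2.26 FPKM), Cfi (7.02 ± 4.34), C8a (5.47 ± 1.31), C1ra (5.34 ± 1.46), Cfd (3.98 ± 2.19), Mbl1 (3.49 ± 1.21), C4b (3.18 ± 1.72) and Cfp (1.14 ± 0.758). Of the coagulation genes these were Fga (9.67 ± 4.67), protein S (Pros1, 9.59 ± 1.74), Fgg (8.85 ± 6.25), protein Z (Proz, 3.14 ± 0.683), F8 (2.18 ± 0.3998), factor V (F5, 1.60 ± 0.602) and Fgb (1.58 ± 1.24). The 10 hepatocyte markers were summed at 78.4 to 96.3 FPKM in the same kidneys, and 6 of them passed the filter on low values. Of the others, Cps1, a urea cycle enzyme, was listed at 0 in all 8 kidneys, and Ahsg, a plasma protein gene at 3666 to 4865 FPKM in the livers, was at most 0.0375 FPKM. Albumin (Alb) was at 2.83 to 5.71 FPKM in the kidneys, which was 0.00622% to 0.0127% of the liver of the same mouse.

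The comparison of ADV with LD asked whether long misalignment of the light schedule goes with a change of these genes. No member passed an adjusted p of 0.05 in either organ with limma. In the liver all 43 were tested, where 0.00779% of all 12835 genes tested passed, and in the kidney 34 were tested, where 0% of 14452 passed. At an unadjusted p under 0.05, 4 members were higher in the ADV liver (8.65% of all genes tested) and 4 lower (3.13%), and in the kidney 1 was higher (1.75%) and 1 lower (1.35%). The limma-voom fit on recovered fragments also gave 0 members at the adjusted threshold in both organs. At the unadjusted one it gave 4 higher and 2 lower in the liver, where 1036 of all 12835 genes were higher and 385 lower. In the kidney it gave 1 and 1, where 202 of all 14452 genes were higher and 202 lower. The unadjusted counts depended on the fit. With both organs in 1 fit they were 0 higher and 2 lower in the liver, where 816 of all 14379 genes were higher and 159 lower. In the kidney that fit gave 6 higher and 3 lower, where 368 of all genes were higher and 372 lower. Under median ratio scaling 3 were higher in the kidney, C1ra, C4b and C6, and 1 lower, Klkb1. That scaling gave 263 of all 14452 kidney genes higher and 182 lower.

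In the liver the complement members had a median log2 difference, ADV minus LD, of 0.11, the coagulation members of -0.01, and all genes tested of 0.10. Under median ratio scaling these medians were 0.01, -0.12 and 0.00. In the kidney the medians were 0.31 over 18 complement members, 0.04 over 16 coagulation members and -0.02 over all genes. In the kidney 13 of the 18 complement members had a log2 difference above 0, as had 46.4% of all genes. Without the A115 kidney, where 18.8% of all genes passed the adjusted threshold, still 0 of 34 members passed, the medians were 0.64 for complement and 0.23 for coagulation, and that of all genes was 0.20. The smallest adjusted p of a member was then 0.054, for C4b. Single mice weighed on most of the differences. With 1 mouse left out at a time, the log2 difference moved by more than 1.5 times or turned its sign for 33 of 43 members in the liver and 28 of 34 in the kidney, and the sign turned for 13 and 11 of these, in none of which the difference had exceeded its standard error.

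In the kidney the members varied widely between mice of 1 condition. In each mouse the median deviation of the 18 complement members from the LD mean (log2) was -0.23, -0.08, 0.48 and -0.13 in L63, L65, L86 and L104 and 1.01, -0.07, 0.94 and -0.21 in A75, A91, A94 and A115. The A75 and A94 kidneys were the highest, A91 and A115 lay within the range of the LD kidneys, and L86 was the highest of the LD kidneys. In the A75 kidney 9 of the 18 were more than 2-fold above the LD mean, in A94 8, in L86 5, in A115 4 and in A91 0, while 4 were more than 2-fold below it in A115 and 2 in A91. Markers of other cell types differed between the same kidneys. The 8 stellate cell and fibroblast markers, all of them detected, were summed at 142, 168 and 136 FPKM in A75, A94 and A115 and at 50.6 to 83.6 FPKM in the other 5. The 6 B cell and plasma cell markers reached 539.5 FPKM in A94 and at most 60.6 FPKM in the others. The part of these markers in the complement levels was not tested. Without A94 the median log2 difference, ADV minus LD, of the kidney complement members was 0.25, and that of all genes -0.10.

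**Figure D2:**
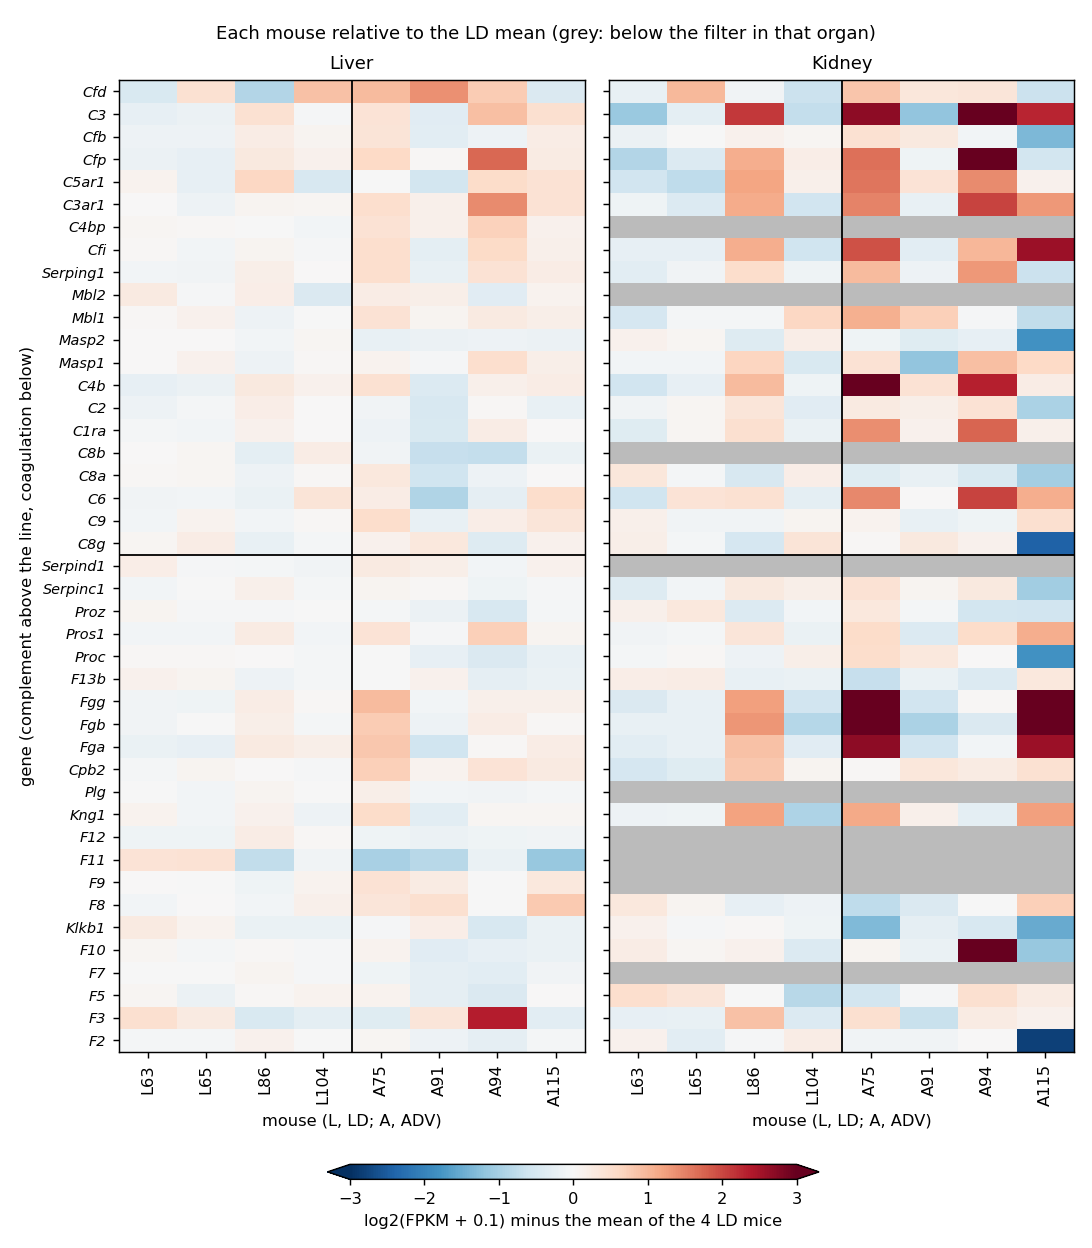
Each gene (rows, complement above the line and coagulation below) in each mouse (columns) as log2(FPKM + 0.1) minus the mean of the 4 LD mice of that organ, in colour, with grey for genes below the filter on low values. The kidney shows the fibrinogen chains above the LD mean in A75, A115 and L86, C3 in A75, A94, A115 and L86, and the liver shows smaller deviations, with F3 and Cfp highest in A94.

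In the kidney, among the genes that start the classical and lectin pathways, C4b, whose product is a part of the C3 convertase, was at 1.94, 2.43, 5.72 and 2.64 FPKM in the LD mice and at 26.01, 3.97, 15.2 and 3.41 FPKM in A75, A91, A94 and A115, the order kept for all values of ADV mice. A75 and A94 lay above all other kidneys, while A91 and A115 lay within the LD range. The log2 difference was 1.53 ± 0.69 (adjusted p = 1.0), and the two-sided exact permutation test gave p = 0.14, where 0.029 is the smallest that 4 mice against 4 allow. C4b is close in sequence to C4a, which was not analysed here, so that its level is uncertain.

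C1ra, a protease of the C1 complex, was at 4.05, 5.41, 7.35 and 4.55 FPKM in the LD kidneys and 13.8, 5.70, 17.8 and 5.84 FPKM in the ADV kidneys. Again A75 and A94 were the highest, and the groups overlapped (log2 difference 0.86 ± 0.41, adjusted p = 1.0, exact permutation p = 0.14). Masp2, the lectin pathway protease that cleaves C4 and C2, was at 0.482, 0.460, 0.305 and 0.515 and 0.392, 0.315, 0.349 and 0.0514 FPKM, with A115 the lowest (log2 difference -0.64 ± 0.40, exact permutation p = 0.11). C2, Masp1 and the mannose-binding lectin Mbl1 had log2 differences of -0.02 ± 0.32, 0.19 ± 0.48 and 0.25 ± 0.42.

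Of the complement genes above 10 FPKM in the LD kidneys, C3 ranged over the widest fold. It was at 5.76, 10.3, 55.7 and 7.62 FPKM in the LD mice and at 81.5, 5.53, 126 and 62.3 FPKM in the ADV mice. The L86 kidney stood with A75, A94 and A115, and A91 was the lowest of all 8, so that the groups overlapped although the ratio of the group means, ADV over LD, was 3.46. The log2 difference was 1.78 ± 1.07 (adjusted p = 1.0, exact permutation p = 0.23). Without L86 it was 2.49 ± 1.02 and without A94 1.27 ± 1.13.

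Cfb, the most abundant member in the kidney, did not share this order. It was at 141, 157, 171 and 163 FPKM in the LD kidneys and 217, 193, 149 and 62.0 FPKM in the ADV kidneys, with A75 and A91 above the LD range and A115 below it (log2 difference -0.17 ± 0.37, exact permutation p = 0.91). Cfp (properdin, which stabilises the alternative convertase) was at 0.491, 0.718, 2.20 and 1.13 and 3.31, 0.886, 12.2 and 0.642 FPKM, with A94 the highest. Cfd, which adipocytes also make, was at 3.10, 7.19, 3.35 and 2.27 and 6.54, 4.60, 4.71 and 2.27 FPKM, with the groups overlapping.

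In the terminal pathway, C6, which binds first to C5b, was the complement member with the smallest p in the kidney. It was at 0.182, 0.476, 0.495 and 0.254 FPKM in the LD mice and 1.07, 0.330, 1.66 and 0.813 FPKM in the ADV mice, all low levels. A75, A94 and A115 lay above the LD range and A91 inside it (log2 difference 1.14 ± 0.46, adjusted p = 1.0, exact permutation p = 0.086). The C8 gamma chain gene C8g was at 9.84, 8.31, 6.12 and 11.4 and 8.89, 10.6, 9.47 and 1.54 FPKM, with A115 the lowest (log2 difference -0.50 ± 0.59, without A115 0.15 ± 0.20). The alpha chain gene C8a was at 6.80, 5.11, 3.81 and 6.18 and 4.11, 4.58, 3.86 and 2.61 FPKM, with the groups overlapping (log2 difference -0.52 ± 0.25, exact permutation p = 0.11). C9, which forms the wall of the pore, was at 0.616, 0.499, 0.497 and 0.581 and 0.601, 0.451, 0.491 and 0.803 FPKM, with the groups overlapping (log2 difference 0.06 ± 0.22).

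Of the regulators, Cfi (factor I, which cleaves C3b and C4b) was at 5.25, 5.26, 13.5 and 4.09 FPKM in the LD kidneys and 23.8, 5.04, 12.6 and 37.7 FPKM in the ADV kidneys. A115 and A75 were the highest, L86 and A94 were close to each other, and A91 lay among the other LD kidneys (log2 difference 1.29 ± 0.64, adjusted p = 1.0, exact permutation p = 0.2). Serping1 was at 35.8, 41.3, 64.5 and 40.5 and 85.7, 40.2, 109 and 28.3 FPKM, with A94 the highest and A115 the lowest (log2 difference 0.36 ± 0.44, without A94 0.05 ± 0.40, without A115 0.70 ± 0.33).

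The receptor of C3a, C3ar1, was at 0.672, 0.530, 1.71 and 0.462 FPKM in the LD kidneys and 2.26, 0.618, 3.31 and 1.96 FPKM in the ADV kidneys. A94, A75 and A115 lay above all LD kidneys, L86 was next and A91 lay among the other LD kidneys (log2 difference 1.15 ± 0.55, exact permutation p = 0.086). The C5a receptor C5ar1 was at 0.354, 0.295, 1.43 and 0.645 and 1.95, 0.798, 1.69 and 0.632 FPKM, with the groups overlapping (log2 difference 0.89 ± 0.52). Both receptors are myeloid genes, and the summed level of 10 macrophage and monocyte markers was 84.1, 106, 236 and 88.3 FPKM in the LD kidneys and 251, 95.5, 668 and 133 FPKM in the ADV kidneys. That sum was highest in A94, A75 and L86, and its part in the receptor levels was not tested. Fewer cells of a type and less RNA per cell cannot be told apart in these bulk samples.

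**Figure D3:**
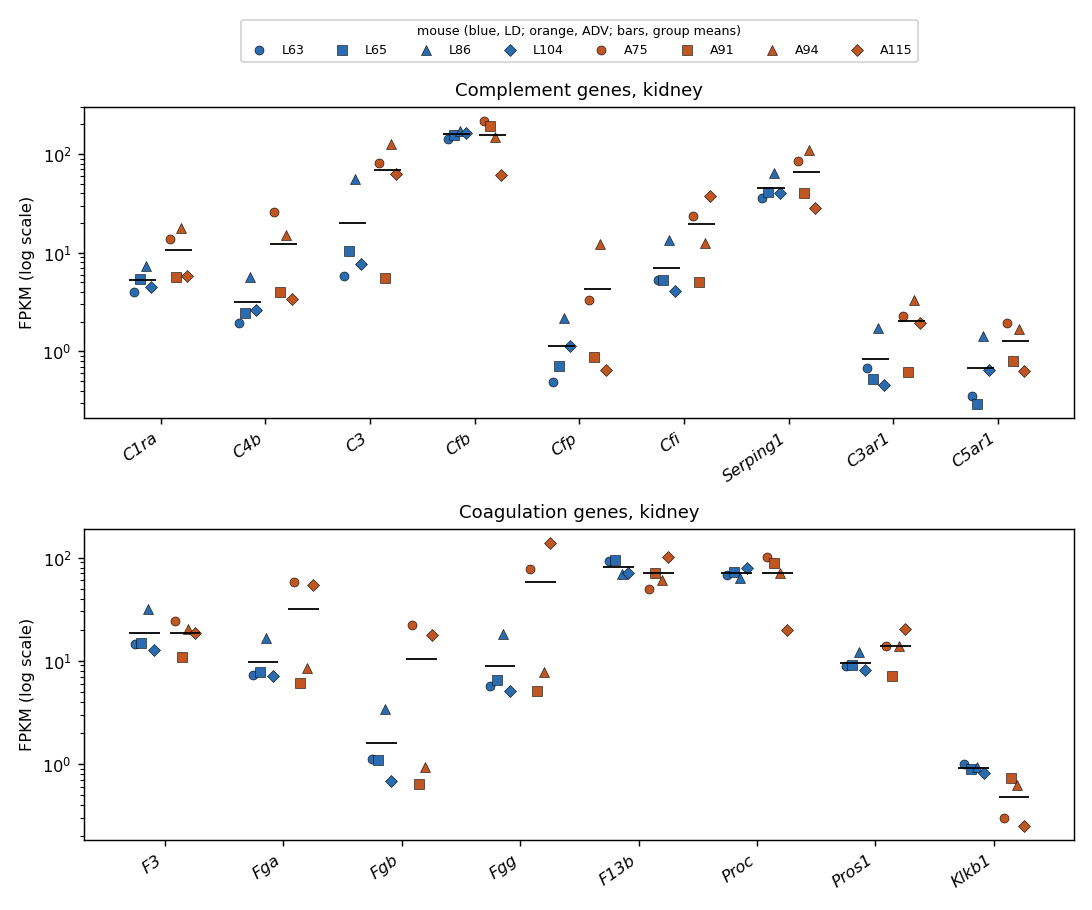
FPKM of 9 complement genes (upper panel) and 8 coagulation genes (lower panel) in the kidney of each mouse on a log scale, with 1 symbol per mouse, LD in blue, ADV in orange and group means as bars. In C3 and the fibrinogen chains the triangle of L86 lies above the other LD mice and the square of A91 lies below it, and Klkb1 is the 1 gene shown whose groups do not overlap.

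The fibrinogen chain genes spread widely between mice in the kidney. Fga was at 7.23, 7.69, 16.7 and 7.10 FPKM in the LD mice and 58.1, 6.06, 8.45 and 54.2 FPKM in the ADV mice, Fgb at 1.11, 1.10, 3.41 and 0.682 and 22.3, 0.633, 0.942 and 17.6, and Fgg at 5.65, 6.51, 18.2 and 5.07 and 78.2, 5.12, 7.84 and 138. In all 3 genes the A75 and A115 kidneys were the highest, L86 was the third, and A91 and A94 were below L86. The log2 differences were 1.15 ± 0.79 for Fga, 1.56 ± 1.20 for Fgb and 1.74 ± 1.08 for Fgg, with exact permutation p of 0.34, 0.4 and 0.23. Without A75 the differences were 0.64 ± 0.76, 0.75 ± 1.14 and 1.21 ± 1.14, and without A115 0.67 ± 0.71, 0.87 ± 1.10 and 0.94 ± 0.88. The order differed from that of C3, C4b and C1ra, in which A94 was among the highest.

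Of the hepatocyte transcripts, Alb was lower in the A75 and A115 kidneys, at 3.23 and 2.83 FPKM, than in the other 6, at 3.83 to 5.71 FPKM, and Cps1 was at 0. Others went the other way. Of the 6 hepatocyte markers tested in the kidney, 2 were highest in A75, 1 in A115, 2 in A94 and 1 in L65. The 10 hepatocyte markers were summed at 123 FPKM in the A75 kidney, at 82.1 in that of A115 and at 78.4 to 96.8 FPKM in the other 6. The chains stood in another proportion than in the liver. The ratio of Fgb to Fgg ranged from 1.26 to 1.57 in the 8 livers and from 0.120 to 0.285 in the 8 kidneys. In the kidney with the most Fgg, that of A115, Fgg reached 7.62% of the liver of the same mouse, against 2.47% in A75, 0.961% in L86 and 0.303% to 0.439% in the other 5. The 10 acute phase genes, which hold no chain gene, were summed at 203, 147 and 56.9 FPKM in the kidneys of A75, A115 and L86 and at most at 27.0 FPKM in the other 5, and 1 of them was below 0.1 FPKM in every kidney. Most of that sum was Lcn2. Chosen after their values were seen from the lists of acute phase and bile duct markers, Lcn2, which injured tubules secrete, was at 11.4, 19.2, 54.9 and 16.8 FPKM in the LD kidneys and 191, 11.98, 21.5 and 141 FPKM in the ADV kidneys, and Spp1 (osteopontin) at 605, 759, 2676 and 709 and 6636, 563, 786 and 8133 FPKM. Both had A75, A115 and L86 as the 3 highest kidneys, and the part of these genes and lists in the fibrinogen levels was not tested.

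**Figure D4:**
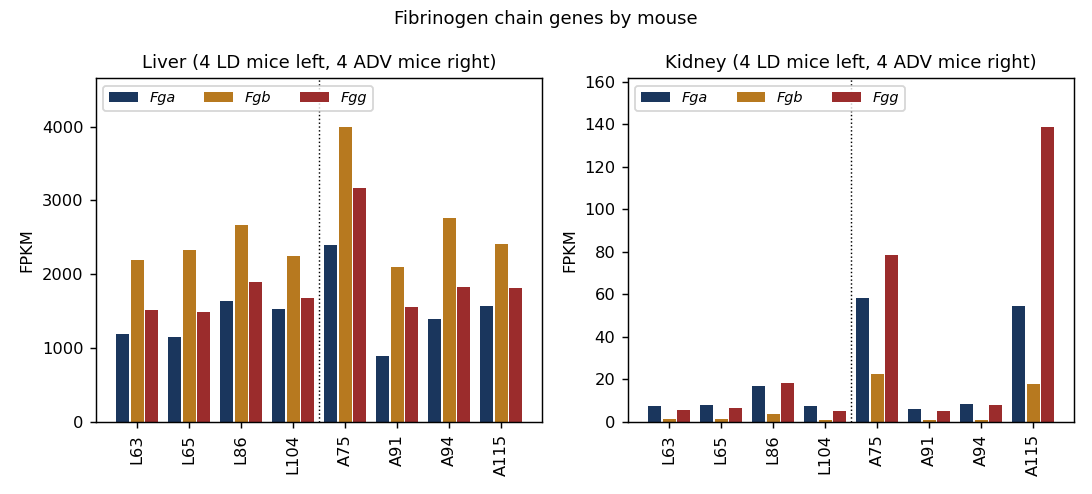
FPKM of the 3 fibrinogen chain genes as bars for each mouse, liver on the left and kidney on the right with separate scales that start at 0, LD mice left of the dotted line and ADV mice right of it. In the liver Fgb is the highest chain in every mouse, and in the kidney it is the lowest, with A75, A115 and L86 above the other 5 mice.

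The 3 chain genes lie side by side within 42.1 kb of chromosome 3, from position 83007724 to 83049863 (GRCm38, mm10). The 250 bases before each start site are shown, with those of C3 on chromosome 17, because the chain genes had the same 3 mice at the top in the kidney and C3 had these 3 and A94. The sequences are from RefSeq (GRCm38.p6) and are given 5′ to 3′ on the gene's strand, with the start site directly after the last base, where the tables of the study also begin each gene. The capitals mark CTGGGA, the core of the interleukin-6 response element, and TTGCNNAA, a binding motif of C/EBP factors, on either strand.
Fgg, chr3:83007474-83007723 (+): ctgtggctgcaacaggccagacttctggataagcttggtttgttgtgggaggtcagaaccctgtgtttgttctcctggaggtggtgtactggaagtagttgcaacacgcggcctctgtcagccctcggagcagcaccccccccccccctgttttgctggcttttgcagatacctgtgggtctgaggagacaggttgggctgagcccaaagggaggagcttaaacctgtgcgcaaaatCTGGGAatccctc
Fga, chr3:83025903-83026152 (+): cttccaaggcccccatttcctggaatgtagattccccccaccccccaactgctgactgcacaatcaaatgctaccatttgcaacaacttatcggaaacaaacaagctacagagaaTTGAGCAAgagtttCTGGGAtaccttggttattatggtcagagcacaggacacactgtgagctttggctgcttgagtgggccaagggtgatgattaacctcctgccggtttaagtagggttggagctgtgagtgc
Fgb, chr3:83049864-83050113 (−): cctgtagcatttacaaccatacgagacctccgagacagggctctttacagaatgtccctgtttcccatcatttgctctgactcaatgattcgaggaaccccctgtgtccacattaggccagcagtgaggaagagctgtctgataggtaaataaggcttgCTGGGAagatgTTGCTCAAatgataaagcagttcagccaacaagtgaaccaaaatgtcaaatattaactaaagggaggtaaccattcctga
C3, chr17:57228137-57228386 (−): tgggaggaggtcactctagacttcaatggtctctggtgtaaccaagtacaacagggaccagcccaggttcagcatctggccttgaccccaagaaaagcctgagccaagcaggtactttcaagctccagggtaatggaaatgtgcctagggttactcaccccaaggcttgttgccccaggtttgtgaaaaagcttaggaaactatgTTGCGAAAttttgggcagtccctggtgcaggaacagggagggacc

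CTGGGA occurred in all 3 chain promoters, from base -13 in Fgg, -121 in Fga and -91 in Fgb, and not in that of C3, which held TTGCNNAA from base -45. Fga and Fgb held both motifs. In windows of the same length, CTGGGA was found in 27.0% of 32851 promoters and in 14 of the 34 members with a RefSeq promoter, and TTGCNNAA in 9.56% and in 7 of 34. The STAT motif TTCNNNGAA was in 7.02% of all promoters and in 6 of 34, Fga and Fgb among them, and GTTAAT, a core of the binding site of the hepatocyte factor HNF1, in 6.43% and in 9 of 34. The E-box CACGTG, which clock factors bind, was in 6.02% of all promoters and in 0 of 34. The D-box TTANGTAA was in 2.06% and in 1 of 34, F13b. No motif match overlapped another in the sequences shown. These matches describe letters in this window alone.

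The tissue factor gene, by contrast, was highest in an LD kidney. F3 was at 14.4, 14.7, 31.9 and 12.8 FPKM in the LD mice and 24.1, 10.8, 20.3 and 18.7 FPKM in the ADV mice. L86 was the highest of all 8 and A91 the lowest, and the log2 difference was 0.05 ± 0.35. F5 and F8 overlapped between the groups, with log2 differences of 0.03 ± 0.35 and -0.12 ± 0.33. F2 was at 0.664, 0.463, 0.577 and 0.710 and 0.551, 0.546, 0.604 and 0 FPKM, with the value of A115 listed at 0.

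Klkb1 (prekallikrein, the contact protease that releases bradykinin) was the 1 member whose 4 ADV kidneys all lay below the 4 LD kidneys, a separation that 1.83% of all genes tested showed. It was at 0.996, 0.886, 0.926 and 0.815 FPKM in the LD mice and 0.298, 0.737, 0.619 and 0.251 FPKM in the ADV mice, all below 1 FPKM. A115 and A75 were the lowest (log2 difference -0.90 ± 0.32, adjusted p = 1.0, exact permutation p = 0.029). No member had all 4 ADV kidneys above the LD kidneys, as 0.962% of all genes had. Kng1, the kininogen that Klkb1 acts on, was at 0.405, 0.408, 1.195 and 0.193 and 1.13, 0.519, 0.355 and 1.22 FPKM (log2 difference 0.56 ± 0.53), with A115, L86 and A75 the 3 highest, as in the fibrinogen chains.

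F13b was at 93.2, 93.6, 69.1 and 70.4 FPKM in the LD kidneys and 49.7, 70.1, 61.0 and 101 FPKM in the ADV kidneys. A115 was the highest, A75 and A94 lay below the LD range and A91 inside it (log2 difference -0.25 ± 0.24). Without A115 the difference was -0.44 ± 0.16 (adjusted p = 0.089). Of the anticoagulants, Proc was at 67.5, 72.3, 64.0 and 79.8 and 102, 88.6, 71.3 and 20.0 FPKM, with A75 and A91 above the LD range and A115 far below it. Pros1 was at 8.87, 9.14, 12.1 and 8.21 and 14.0, 7.11, 14.0 and 20.3 FPKM, with A115 the highest (log2 difference 0.45 ± 0.31). Serpinc1 was at 0.515, 0.665, 0.878 and 0.806 and 0.993, 0.748, 0.884 and 0.291 FPKM, with the groups overlapping (log2 difference -0.06 ± 0.36). Proz had a log2 difference of -0.21 ± 0.27, and Cpb2, whose product protects fibrin from plasmin, of 0.27 ± 0.31. The genes lowest in A115, among them Cfb, Proc, C8g, Masp2 and F2, were low together with the proximal tubule, distal tubule and collecting duct, and podocyte markers of that library. The part of these markers and of its high mitochondrial share in the values was not tested.

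In all, 9 members were below the filter in the kidney. Besides C8b and F11 they were F12, with at most 0.0519 FPKM, F9, with at most 0.0958, Plg, at 0.0188, 0.0427, 0.0638 and 0.0403 in the LD mice and 0.101, 0.0413, 0.0742 and 0.0382 in the ADV mice, C4bp, with at most 0.218, Serpind1, with at most 0.209, Mbl2, with 0.131 to 0.525, and factor VII (F7). F7 was at most 0.0315 FPKM in 7 kidneys and at 1.33 FPKM in that of A94. Factor X (F10) had the same pattern, with at most 0.155 FPKM in 7 kidneys and 2.08 FPKM in A94, and passed the filter only through that library. F7 and F10 stood at 36.7 and 129.7 FPKM in the A94 liver, within or below the range of the other ADV livers.

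In the liver, deviations were smaller. Of the 43 members, 3 had all 4 ADV livers above the 4 LD livers (6.94% of all genes tested) and 3 had all 4 below (1.89%). The 3 higher were C4bp, C3ar1 and Cpb2, and the 3 lower were Masp2, F7 and Proz. For each of these 6 the exact permutation p was 0.029, the smallest possible, and the smallest adjusted p of limma over all 43 members was 0.37.

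C4bp, the regulator that takes apart the classical convertase, was at 326, 323, 309.8 and 297 FPKM in the LD livers and 421, 346, 503 and 341 FPKM in the ADV livers. A94 and A75 were the highest, and A115 and A91 lay closer to the LD range (log2 difference 0.34 ± 0.14, adjusted p = 0.39). The other fluid-phase regulators Cfi and Serping1 had log2 differences of 0.24 ± 0.18 and 0.23 ± 0.16, and in both the A91 liver was below all LD livers while the other 3 ADV livers were above all of them. C3ar1 was at 1.05, 0.925, 1.11 and 1.09 and 1.52, 1.16, 2.97 and 1.43 FPKM, with A94 well above the other ADV livers (log2 difference 0.62 ± 0.26, adjusted p = 0.4). Without A94 it was 0.36 ± 0.15, a move of more than 1.5 times. The macrophage markers were summed at 111 to 173 FPKM in the LD livers and at 228, 167, 547 and 170 FPKM in the ADV livers, and their part in C3ar1 was not tested. The 8 stellate cell and fibroblast markers were summed at 119 to 136 FPKM in the LD livers and at 204, 164, 336 and 195 FPKM in the ADV livers. The 10 acute phase genes, none of which is a member, were summed at 6047 to 9416 FPKM in the LD livers and at 13721, 6178, 13717 and 10321.5 FPKM in the ADV livers, with A91 low as in Cfi and Serping1. The part of either list in the levels of the members was not tested. C5ar1 was at 0.478, 0.352, 0.729 and 0.288 and 0.431, 0.270, 0.683 and 0.626 FPKM and overlapped between the groups.

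C3 was at 1139, 1181, 1852 and 1306 FPKM in the LD livers and 1795, 1057, 2527 and 1860.2 FPKM in the ADV livers. A94 was the highest and A91 the lowest of all 8, and L86 lay with A75 and A115 (log2 difference 0.36 ± 0.27, exact permutation p = 0.34, without A94 0.18 ± 0.24). Cfp was at 7.36, 7.07, 10.3 and 9.17 and 12.7, 8.54, 27.9 and 9.96 FPKM, again highest in A94 (log2 difference 0.65 ± 0.33, without A94 0.29 ± 0.17). Cfb and Cfd overlapped between the groups, at 443, 442, 568 and 520.2 and 641, 392, 440.4 and 569.6 FPKM for Cfb and at 2.13, 4.07, 1.57 and 5.49 and 5.84, 7.79, 5.06 and 2.17 FPKM for Cfd, with log2 differences of 0.03 ± 0.17 and 0.67 ± 0.45.

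Among the initiating genes Masp2 was lower in every ADV liver, at 61.7, 62.3, 57.9 and 64.4 FPKM in the LD mice and 52.6, 54.7, 55.1 and 54.1 FPKM in the ADV mice. The ADV values lay within 2.52 FPKM of each other (log2 difference -0.18 ± 0.08, adjusted p = 0.4). Mbl1 was at 186, 199, 163 and 182 and 246, 193, 218 and 207 FPKM, with 3 ADV livers above all LD livers (log2 difference 0.24 ± 0.11, exact permutation p = 0.057). C2 was at 45.4, 49.1, 58.3 and 51.1 and 46.9, 36.5, 52.1 and 43.7 FPKM and C4b at 149, 157, 218 and 195 and 244, 135, 198 and 207 FPKM. A91 was the lowest liver in both, and the log2 differences were -0.19 ± 0.13 for C2 and 0.11 ± 0.19 for C4b. C1ra, Masp1 and Mbl2 had log2 differences of -0.09 ± 0.14, 0.19 ± 0.12 and 0.05 ± 0.18.

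In the terminal pathway C8b was at 156, 161, 126 and 180.2 FPKM in the LD livers and 143, 95.2, 93.5 and 136 FPKM in the ADV livers. A91 and A94 lay below all LD livers and A75 and A115 within their range (log2 difference -0.43 ± 0.17, adjusted p = 0.39, exact permutation p = 0.086). The partner chains C8a and C8g had log2 differences of -0.10 ± 0.18 and 0.04 ± 0.16 and overlapped between the groups. C9 was at 299.7, 343, 301 and 326 and 456, 273, 367 and 407 FPKM, with A91 below and the other 3 ADV livers above the LD range (log2 difference 0.22 ± 0.16), and C6 had a log2 difference of -0.11 ± 0.28.

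**Figure D5:**
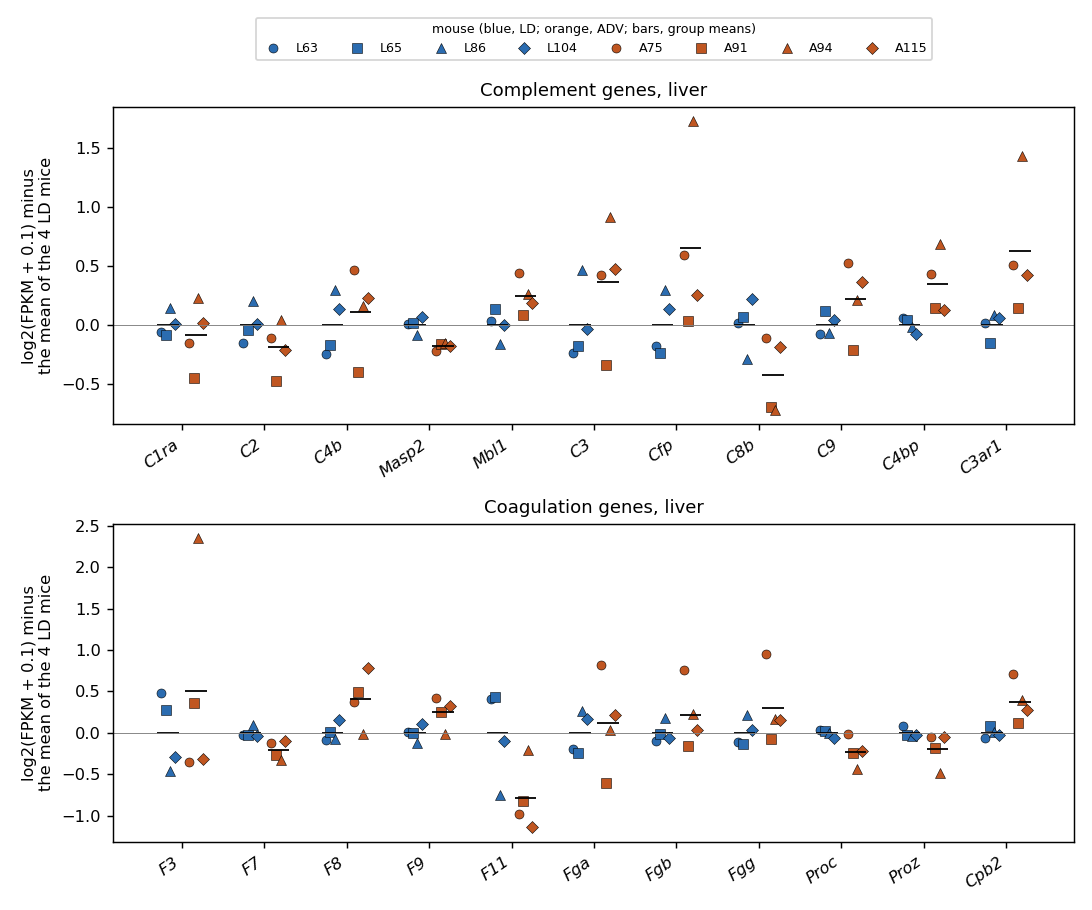
Complement genes (upper panel) and coagulation genes (lower panel) in the liver of each mouse as log2(FPKM + 0.1) minus the mean of the 4 LD mice, with 1 symbol per mouse, LD in blue, ADV in orange and group means as bars. C4bp, C3ar1 and Cpb2 have all ADV points above the LD points, Masp2, F7 and Proz have them all below, and F3 in A94 lies far above the other livers.

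Of the coagulation genes in the liver, Cpb2 had the smallest p. It was at 254, 279, 265 and 259.9 FPKM in the LD mice and 432, 286, 349 and 319 FPKM in the ADV mice. A75 was the highest, and A91 lay just above the LD range (log2 difference 0.37 ± 0.13, adjusted p = 0.37). Plg, its counterpart in fibrinolysis, was at 701, 668, 750.0 and 699.5 and 793, 661, 653 and 678 FPKM and overlapped between the groups (log2 difference -0.02 ± 0.11).

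F7, the protease that tissue factor activates, was lower in all 4 ADV livers, at 45.3, 45.3, 48.9 and 44.6 FPKM in the LD mice and 42.1, 38.3, 36.7 and 42.8 FPKM in the ADV mice. The gap between the groups was smaller than the range of the ADV values (log2 difference -0.21 ± 0.09, adjusted p = 0.41). F3 was at 1.84, 1.57, 0.905 and 1.04 and 0.982, 1.68, 6.96 and 1.01 FPKM. The A94 liver stood alone at the top and the other 3 ADV livers lay inside the LD range (log2 difference 0.51 ± 0.55, without A94 -0.11 ± 0.27). F2 was at 709.9, 709, 802 and 733 and 772, 659, 616 and 704 FPKM, with A75 inside the LD range and the other 3 below it, and F5 and F10 had log2 differences of -0.15 ± 0.13 and -0.16 ± 0.11.

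Factor XI (F11), which amplifies thrombin formation, had the largest log2 difference of the coagulation genes by size. It was at 29.8, 30.2, 13.3 and 20.9 FPKM in the LD livers and 11.3, 12.6, 19.3 and 10.1 FPKM in the ADV livers. L86 lay among the ADV values and A94 inside the LD range, so that the groups overlapped (log2 difference -0.79 ± 0.28, adjusted p = 0.37, exact permutation p = 0.057). F8 was at 2.85, 3.04, 2.87 and 3.38 and 3.94, 4.30, 2.99 and 5.29 FPKM, with 3 ADV livers above all LD livers and A94 inside their range (log2 difference 0.41 ± 0.17, exact permutation p = 0.086). Factor IX (F9), the protease that F8 serves, was at 105, 103.8, 95.6 and 112 and 139.6, 124, 103 and 130.3 FPKM, likewise with A94 inside the LD range (log2 difference 0.25 ± 0.11). Without A94 the differences were 0.55 ± 0.13 for F8 (adjusted p = 0.17) and 0.33 ± 0.09 for F9. F12, Kng1 and Klkb1 had log2 differences of -0.13 ± 0.10, 0.09 ± 0.18 and -0.12 ± 0.16.

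Fibrinogen in the liver was highest in A75 for all 3 chains. Fga was at 1187, 1149, 1633 and 1526 FPKM in the LD mice and 2394, 894, 1394 and 1573 FPKM in the ADV mice, Fgb at 2191, 2334, 2664 and 2247 and 3989.9, 2102, 2755 and 2407, and Fgg at 1516, 1482, 1891 and 1672 and 3162, 1554, 1826 and 1817. L86 was the highest LD liver in each chain, and the A115 liver, whose kidney held the most Fgg, lay within the LD range for Fga, Fgb and Fgg. The log2 differences were 0.12 ± 0.28, 0.22 ± 0.21 and 0.30 ± 0.22, and that of F13b was -0.09 ± 0.11. Without A75 the differences of the chains were -0.12 ± 0.23, 0.03 ± 0.16 and 0.08 ± 0.15, with the sign turned for Fga.

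Of the anticoagulants, Proz was at 146, 135, 133 and 135 FPKM in the LD livers and 132, 121, 97.6 and 132 FPKM in the ADV livers. A94 was the lowest and A75 and A115 lay just below the LD range (log2 difference -0.19 ± 0.11, adjusted p = 0.49), and without A94 it was -0.10 ± 0.08. Proc was at 266, 264, 259 and 247 and 256, 219, 191 and 223 FPKM, with A75 inside the LD range and the other 3 below it (log2 difference -0.23 ± 0.11, exact permutation p = 0.057). Serpinc1 was at 759.9, 792, 886 and 761 and 849, 814, 736 and 782 FPKM (log2 difference -0.01 ± 0.11), and Pros1 and Serpind1 had log2 differences of 0.30 ± 0.17 and 0.12 ± 0.11. Scaling by the median ratio moved the median of all liver genes from 0.10 to 0.00. At an unadjusted limma p under 0.05 it turned 4 higher and 4 lower members into 1 higher, C3ar1, and 5 lower. These 5 were C2, C8b, F11, F7 and Masp2. All 12835 genes tested moved likewise, from 1110 higher and 402 lower to 795 higher and 936 lower. Leaving out 1 mouse at a time gave between 1 member at that threshold, without L63, and 11, without A91, in the liver. Over all liver genes the same fits gave 1110 and 2229 at that threshold. In the kidney the members ranged from 0, without L63 or A75, to 10, without A91. Over all kidney genes these fits gave 174 without L63, 323 without A75 and 865 without A91.

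The effect of ADV was also compared between the organs, in 1 fit over the 16 libraries. The liver effect minus the kidney effect did not pass an adjusted p of 0.05 for any of the 43 members, where 0% of 14379 genes passed. Of the 43, 9 lay below the filter in the kidney and give no comparison of organs. Of the other 34, 2 had an unadjusted p under 0.05, Klkb1, at 0.77 ± 0.36 (log2 ± SE), and C6, at -1.25 ± 0.56, with adjusted p of 1.0 each by limma. At that unadjusted threshold 446 of all 14379 genes had a difference above 0 and 90 below. For the fibrinogen chains the differences were -1.03 ± 0.88, -1.35 ± 1.28 and -1.44 ± 1.16 for Fga, Fgb and Fgg, and for C3 -1.41 ± 1.17. With the mouse as a block, Klkb1, C6, C1ra and C4b had an unadjusted p under 0.05, and none passed the adjusted threshold. Over all 14379 genes that fit gave 392 above 0 and 105 below at the unadjusted threshold.

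A further 30 complement genes and 29 coagulation and fibrinolysis genes were followed, and with limma 0 of them passed the adjusted threshold in either organ. In the liver 25 complement genes were tested, of which 6 were higher and 0 lower in ADV at an unadjusted p under 0.05, with a median log2 difference of 0.27. Of the 25 coagulation genes tested 7 were higher and 1 lower, with a median of 0.31, where 8.65% of all liver genes tested were higher and 3.13% lower and the median was 0.10. The A94 liver, which held the most macrophage and B cell transcripts, was the highest of all 8 for 14 of the 25 complement and 16 of the 25 coagulation genes, and the part of those cell markers was not tested. Without A94 the medians were 0.17, 0.09 over 23 coagulation genes and 0.02 over all genes. The smallest p in the liver belonged to Colec10, a collectin of the lectin pathway, at 7.34, 9.79, 7.95 and 7.75 FPKM in the LD livers and 12.2, 12.9, 14.1 and 15.7 FPKM in the ADV livers, all ADV values above all LD values (log2 difference 0.74 ± 0.12, adjusted p = 0.21). The ficolin Fcna (0.46 ± 0.11) and the protease inhibitor Tfpi2 (0.54 ± 0.13) were separated in the same way. Among those with a difference below 0 were Hgfac (-0.47 ± 0.15) and Serpine2 (-0.51 ± 0.24), whose groups overlapped.

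In the kidney 1 of 20 further complement genes and 2 of 25 coagulation genes were higher at an unadjusted p under 0.05, and 1 coagulation gene was lower, with medians of 0.39 and 0.20, where 1.75% of all kidney genes tested were higher and 1.35% lower and the median was -0.02. The histidine-rich glycoprotein gene Hrg was lower in all 4 ADV kidneys, at 7.45, 8.81, 7.74 and 8.58 FPKM in the LD mice and 4.48, 7.01, 3.11 and 2.48 FPKM in the ADV mice, with A115 the lowest (log2 difference -1.02 ± 0.31, adjusted p = 1.0). The thrombin receptor F2r was at 20.3, 21.2, 25.2 and 19.6 and 41.1, 19.2, 39.7 and 54.7 FPKM, highest in A115 and A75 (log2 difference 0.75 ± 0.30), and F13a1, the catalytic chain of factor XIII, was at 0.267, 0.439, 0.580 and 0.314 and 0.978, 0.615, 2.05 and 0.473 FPKM, highest in A94 and A75 (log2 difference 1.02 ± 0.43). Tfpi2, named after its values were seen, had all 4 ADV kidneys above the LD kidneys, at 5.90, 5.62, 6.14 and 5.41 and 7.21, 6.71, 6.48 and 12.4 FPKM (log2 difference 0.45 ± 0.23, exact permutation p = 0.029). Fcna had a log2 difference of 1.70 ± 0.74 at levels up to 2.31 FPKM, and Susd4 and Cr2 had -0.76 ± 0.99 and -0.32 ± 0.30.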

How the data were processed

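Liver and kidney RNA of 8 mice was measured in 16 libraries. Per the study's methods, the authors trimmed reads with Trimmomatic, mapped them with STAR 2.5.4b (version from the submitters' processing notes) to mm10, removed reads with a mapping quality below 10 and counted fragments over exons of UCSC known canonical gene models, using Homer. The deposited values are FPKM, divided by each library's own total. The authors' test, DESeq2 on counts, was not used here, since the unit of the values is FPKM. Every value came out in steps of 0.5 fragment, and limma-voom on these fragments was an alternative.

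The members and lists were chosen with earlier results of these data known. Genes whose mean over an organ's libraries exceeded 0.5 RPM (FPKM times exon length in kb) entered limma 3.58.1 in R 4.3.3 (lmFit, eBayes with a trend), run on log2(FPKM + 0.1), with Benjamini-Hochberg adjustment over all genes tested and a threshold of 0.05, in each organ apart. 1 fit over 16 libraries gave the difference between organs. A fold change on this scale understates the change of low genes. Exact permutation tests were two-sided over 70 assignments of the mice. Values in every mouse are given for the members with the smallest limma p (3 in each direction, organ and system), those whose groups did not overlap and 12 central members, and for further members the text turns on. The limma step was also run on simulated data with independent normal noise for each gene. The changes added there were larger than those of the members between ADV and LD. No library stood apart in that simulation, so it does not test how such libraries weigh on the fits.

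Liver and kidney of a number come from the same mouse. Deviations from the group means of the same mouse's organs correlated at -0.02 to 0.55 over 12319 genes, above 0.1 in 5 of 8 mice. Alternatives were pseudocounts of 0.5 and 1, no filter, a mean FPKM above 1, median ratio and quantile scaling, no trend, 1 fit for both organs, mitochondrial genes left out, each mouse left out, A115 left out with median ratio scaling, and the mouse as a replicate block. A94 left out with median ratio scaling in the liver was added after the data were seen. Limits from 3 fragments cover counting error only. P-values measure the spread between these mice. The result of 1 gene of the further lists that the rule named is not reported here.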

Additional observations from a re-analysis of the deposited data

Results flagged for a closer look

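Within groups of 4 mice, 15 values stood apart by Dixon's ratio (95% level) among 154 groups of the members tested in each organ. The nominal rate of about 1 group in 20 holds for independent, normally distributed values. The share over all genes was not computed, so that the count is not a result about the members. Of the 15 values, 7 belonged to the L86 kidney and 3 to the L86 liver. In the LD kidneys L86 stood above the others in C3, at 55.7 FPKM against 5.76 to 10.3, in C3ar1, at 1.71 against 0.462 to 0.672, in Cfi, at 13.5 against 4.09 to 5.26, in F3, at 31.9 against 12.8 to 14.7, and in the 3 fibrinogen chains. There it was at 16.7 FPKM against 7.10 to 7.69 in Fga, at 3.41 against 0.682 to 1.11 in Fgb and at 18.2 against 5.07 to 6.51 in Fgg. In the LD livers L86 was at 48.9 FPKM against 44.6 to 45.3 in F7, at 29.3 against 23.04 to 23.3 in Pros1 and at 262 against 299 to 305 in C8a, and L63 was at 146 FPKM against 133 to 135 in Proz. In the ADV livers F3 was at 6.96 FPKM in A94 against 0.982 to 1.68, and Fgg at 3162 FPKM in A75 against 1554 to 1826. In the ADV kidneys F2 was listed at 0 in A115 against 0.546 to 0.604 FPKM in the others, and F10 was at 2.08 FPKM in A94 against 0 to 0.134.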

How the results depend on the processing

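The count of members past the adjusted threshold was 0 higher and 0 lower in the liver, the kidney and the difference between organs under every alternative run, the replicate block (0 and 0) included. Between organs, 38 members higher and 1 lower with the replicate block equalled the values without it, and leaving out each mouse gave 37 to 39 higher and 1 lower. The median log2 difference of the liver coagulation members, -0.01, was -0.12 under median ratio scaling, which by construction centres all genes near 0, and -0.10 (without A75) to 0.026 (without L86) with each mouse left out. That of the liver complement members, 0.11, was 0.01 under the same scaling. With each mouse left out, the other medians ranged over 0.07 to 0.28 for liver complement, 0.14 to 0.64 for kidney complement and -0.10 to 0.23 for kidney coagulation members. No single member with values in every mouse whose difference exceeded its standard error changed sign under the alternatives, and none reached the threshold. With 4 mice against 4, exact tests cannot give a p below 0.029, and levels below 0.175 FPKM rest on few fragments per kb of exon.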
